A study of Mus musculus with 25 samples.

Results

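The genes of the Wnt ligands, their Frizzled receptors and 2 families of secreted Wnt antagonists were examined in *soleus* muscle. Members were chosen by symbol alone, as all *Wnt*, *Fzd*, *Sfrp* and *Dkk* genes whose symbol ends in a number or in a number followed by a or b. This gave 37 of the 52636 genes counted: 19 *Wnt*, 10 *Fzd*, 4 *Sfrp* and 4 *Dkk* genes.

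Wnt proteins are secreted, lipid-modified ligands that bind Frizzled receptors, which span the membrane and hold the ligand with a cysteine-rich domain. With the coreceptors Lrp5 and Lrp6 this stabilizes beta-catenin, which enters the nucleus and acts with the TCF/LEF factors, whereas other Wnt signals act through planar cell polarity or calcium. Secreted frizzled-related proteins (Sfrp) carry a Frizzled-like domain and can bind Wnts outside the cell, and Dickkopf proteins (Dkk) act mainly on the coreceptors. In muscle, Wnt signals are known for their roles in the embryonic myotome, in satellite cells, in the clustering of acetylcholine receptors at the neuromuscular junction and in the fibrotic response of connective tissue cells.

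The study deleted the DNA methyltransferase *Dnmt3a* in muscle and asked how the *soleus* responds to a bout of running. RNA of 25 C57BL/6 mice, 12 weeks old, was sequenced, 1 *soleus* library per mouse, in 4 groups of both sexes: WT mice at rest (n = 5), WT mice killed 60 minutes after a 30-minute treadmill bout (n = 7), mD3AKO mice at rest (n = 7) and mD3AKO mice 60 minutes after the bout (n = 6). All mice carried floxed *Dnmt3a* alleles. The mD3AKO mice also carried Cre recombinase under the muscle creatine kinase promoter, which is active late in muscle differentiation, so that satellite cells and the other cells of the muscle presumably keep the gene, and the WT mice lacked Cre. Rested mice spent the same time in a sham treadmill arena.

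Between 22671457 and 37431801 reads were counted on genes per library (median 32189360). Levels are given as counts per 1000000 counts (CPM) of the library total multiplied by its TMM scaling factor from edgeR. Before that scaling, 1 CPM at the median depth stood for 32.2 reads. *Dnmt3a* was at 116 ± 13.2 CPM in WT mice (SD, n = 12) and at 40.9 ± 5.86 CPM in mD3AKO mice (n = 13), and no mD3AKO mouse reached the lowest WT mouse. The library of mouse 15, a male mD3AKO mouse at rest, stood apart: ribosomal RNA genes held 39.5% of its counts against 7.76% to 13.0% in the 24 other libraries, and its total was the lowest. The mitochondrial ribosomal RNA gene *mt-Rnr2* alone held 24.0% of the counts of mouse 15. The 10 muscle fiber genes on the marker list summed to 106563 to 181665 CPM per library. In whole muscle RNA, fewer cells of a type and less RNA per cell cannot be told apart.

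Receptors were the most abundant family per length. The levels here are CPM per kilobase of exon (RPKM), averaged over 25 mice. *Fzd9* was at 39.9 ± 7.30 RPKM (SD, n = 25), *Fzd4* at 19.6 ± 4.28 RPKM and *Fzd7* at 8.20 ± 1.61 RPKM. These 3 receptors made up 87.8% of the summed level of the 10 *Fzd* genes. The other *Fzd* genes ranged from 2.23 RPKM (*Fzd6*) to 0.133 RPKM (*Fzd3*), and all 10 passed the filter on low counts.

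Ligands were lower. *Wnt5b*, the close relative of *Wnt5a*, was at 3.98 ± 0.685 RPKM, *Wnt9a* at 3.90 ± 0.582 RPKM and *Wnt11*, a ligand of the branches that do not use beta-catenin, at 1.77 ± 0.300 RPKM. Of the summed *Wnt* level of 12.8 RPKM, these 3 ligands held 75.2%. Per length, *Wnt5b* and *Wnt9a* differed by less than their SD. *Wnt5a*, the best known ligand of the same branches, followed at 0.859 ± 0.206 RPKM, and the other 6 tested ligands lay between 0.214 RPKM (*Wnt2*) and 0.582 RPKM (*Wnt4*). The remaining 9 *Wnt* genes, *Wnt1*, *Wnt3*, *Wnt3a*, *Wnt7a*, *Wnt7b*, *Wnt8a*, *Wnt8b*, *Wnt9b* and *Wnt10a*, had at most 16 counts in any library and did not pass the filter of the fit with 4 groups.

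Among the antagonists, *Dkk2* was at 5.97 ± 2.56 RPKM and held 83.6% of the summed *Dkk* level. *Dkk3*, the divergent member of that family, was at 1.15 ± 0.425 RPKM, and *Dkk1* and *Dkk4* had at most 3 counts in any library and were not tested. *Sfrp5* was at 3.23 ± 1.54 RPKM, *Sfrp4* at 1.10 ± 0.751 RPKM, *Sfrp2* at 0.475 ± 0.356 RPKM and *Sfrp1* at 0.466 ± 0.167 RPKM. The SD of these antagonists was large relative to their level, and it was smallest for the receptors *Fzd5* and *Fzd6*: the mean coefficient of variation within a group ran from 10.5% (*Fzd5*) and 10.9% (*Fzd6*) to 72.5% (*Sfrp2*). In all, 26 of the 37 members passed the filter and 11 did not.

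**Figure D1:**
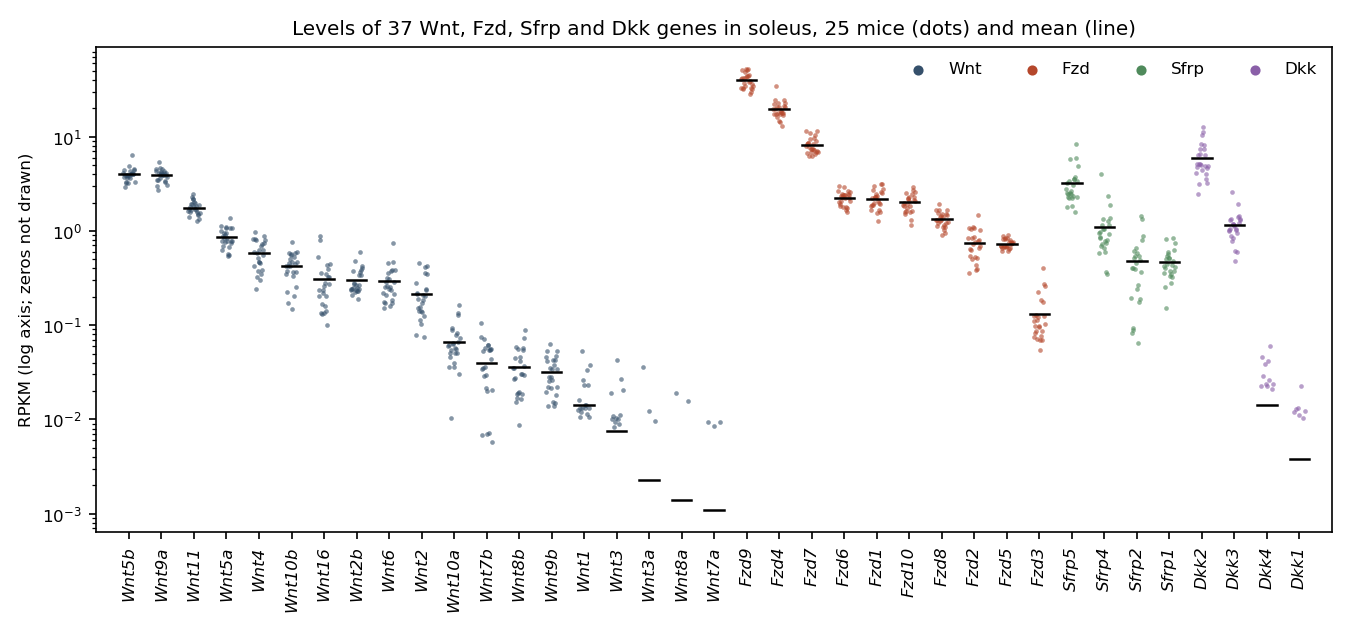
Level of each of the 37 genes in RPKM on a log axis, grouped by family and ordered by mean, with 1 dot per mouse (zeros not drawn) and a line at the mean of 25 mice. *Fzd9*, *Fzd4* and *Fzd7* stand above all ligands and most antagonists, and 9 *Wnt* and 2 *Dkk* genes lie below 0.1 RPKM.

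Because the deleted enzyme methylates cytosines in CG dinucleotides, the CG content of the members' promoters is given for orientation, and no methylation value was used. Promoter sequences came from RefSeq (GRCm38.p6), and 25 of the 37 members matched an entry. The 250 bases before the RefSeq start held a median of 23 CG dinucleotides in the 25 matched members (range 5 to 48), against a median of 6 over all 32851 promoters of the same length (25th to 75th percentile 2 to 16), and 17 of the 25 lay above that 75th percentile. The 4 sequences below are those of *Wnt16*, *Dkk2* and *Wnt11*, which differ in the comparisons that follow and whose RefSeq start is the first base of the counted gene, and of *Wnt9a*, the member with the most CG dinucleotides, whose start lies 2 bases inside the counted gene. CG dinucleotides are in capitals, and each line reads 5′ to 3′ on the plus strand: chr6:22287977-22288226 for *Wnt16*, chr3:132085042-132085291 for *Dkk2*, chr7:98834862-98835111 for *Wnt11* and chr11:59306680-59306929 for *Wnt9a*.
Wnt16: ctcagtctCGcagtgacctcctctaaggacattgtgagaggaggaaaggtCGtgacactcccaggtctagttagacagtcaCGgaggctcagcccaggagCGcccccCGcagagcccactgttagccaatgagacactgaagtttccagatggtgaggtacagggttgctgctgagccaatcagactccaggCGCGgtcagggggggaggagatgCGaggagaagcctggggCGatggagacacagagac
Dkk2: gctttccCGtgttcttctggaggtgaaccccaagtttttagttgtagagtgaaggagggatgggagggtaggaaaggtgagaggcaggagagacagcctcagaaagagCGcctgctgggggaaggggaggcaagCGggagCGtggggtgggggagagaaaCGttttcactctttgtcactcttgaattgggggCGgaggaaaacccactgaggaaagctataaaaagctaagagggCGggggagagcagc
Wnt11: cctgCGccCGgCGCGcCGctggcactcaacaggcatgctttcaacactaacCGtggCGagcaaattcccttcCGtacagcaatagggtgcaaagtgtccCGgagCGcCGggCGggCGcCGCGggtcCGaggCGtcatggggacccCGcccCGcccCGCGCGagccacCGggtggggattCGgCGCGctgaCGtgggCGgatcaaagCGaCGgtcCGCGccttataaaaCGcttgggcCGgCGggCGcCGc
Wnt9a: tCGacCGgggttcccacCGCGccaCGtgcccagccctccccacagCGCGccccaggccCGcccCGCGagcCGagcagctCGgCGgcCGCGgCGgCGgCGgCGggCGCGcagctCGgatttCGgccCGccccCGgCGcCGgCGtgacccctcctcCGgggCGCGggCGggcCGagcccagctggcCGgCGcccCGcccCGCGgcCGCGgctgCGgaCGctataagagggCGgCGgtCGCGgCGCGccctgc
The promoters of *Wnt16* and *Dkk2* held 9 and 7 CG dinucleotides, and those of *Wnt11* and *Wnt9a* 37 and 48. The letters CTTTG followed by a pair of letters that are each A or T, the core of the motif that TCF/LEF factors bind, were searched on both strands. They were in 3 of the 25 matched members (*Dkk1*, *Fzd7* and *Wnt11*) and in 14.8% of all promoters. For *Fzd7* and *Dkk1* the RefSeq start lay 277 and 169 bases from the start of the counted gene, so the bases searched do not end there. *Fzd2*, *Fzd6* and *Wnt5a* were not matched in the promoter table used here.

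The main effect of exercise averaged the response of both genotypes. After exercise, 3 members were lower, the ligand *Wnt5a* and the receptors *Fzd2* and *Fzd6*, and 0 were higher. Of all 16340 genes tested, 10.4% were called (edgeR's quasi-likelihood test, Benjamini-Hochberg adjusted p under 0.05), 4.69% lower and 5.7% higher. The 3 of 26 tested members, all lower, made up 11.5%. The median log2 fold change was -0.13 over the 26 members and -0.00088 over all tested genes, and 18 of the 26 estimates were below 0. DESeq2 called 4 members, adding *Wnt10b*, and 11.8% of all genes.

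*Wnt5a* (ENSMUSG00000021994, mm10 chr14:28504750-28527448) is the prototype of the ligands that act without beta-catenin. In the 5 WT mice at rest it was at 8.71, 8.37, 8.53, 6.08 and 8.46 CPM. In the 7 WT mice after exercise, the lowest, median and highest values were 4.23, 5.85 and 6.87 CPM. In mD3AKO mice they were 6.57, 7.50 and 10.9 CPM at rest and 4.31, 5.74 and 7.14 CPM after exercise. All 13 exercised mice lay below the median of the rested mice, and 9 of them below the lowest rested mouse, which was mouse 14 of the WT group, so that the groups overlapped at their edges. The main effect was -0.51 on the log2 scale (SE 0.0958, adjusted p = 0.000538), a level lower by 29.7%.

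*Fzd2* (ENSMUSG00000050288, chr11:102604396-102608058), a receptor that can bind Wnt5a, had the largest fall of the members. It was at 3.04, 4.06, 3.90, 2.78 and 2.87 CPM in the WT mice at rest. After exercise the lowest, median and highest WT values were 1.40, 2.00 and 2.94 CPM. The mD3AKO mice had 1.96, 3.72 and 5.46 CPM at rest and 1.30, 1.95 and 2.65 CPM after exercise. The low value at rest belonged to mouse 15, and all 13 exercised mice lay below the median of the rested mice. The main effect was -0.76 (SE 0.146, adjusted p = 0.000632), a level lower by 41.0%.

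*Fzd6* (ENSMUSG00000022297, chr15:39006280-39038186), a receptor known from planar cell polarity and hair patterning, had the lowest spread of the 3. It was at 11.1, 9.92, 9.92, 9.85 and 10.9 CPM in the WT mice at rest and at 6.83, 8.00 and 9.36 CPM (lowest, median, highest) in those after exercise. The mD3AKO mice had 9.30, 10.1 and 12.5 CPM at rest and 6.58, 7.93 and 9.88 CPM after exercise. In 11 of the 13 exercised mice the level was below that of every rested mouse. The main effect was -0.38 (SE 0.0670, adjusted p = 0.000296), a level lower by 22.9%.

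**Figure D2:**
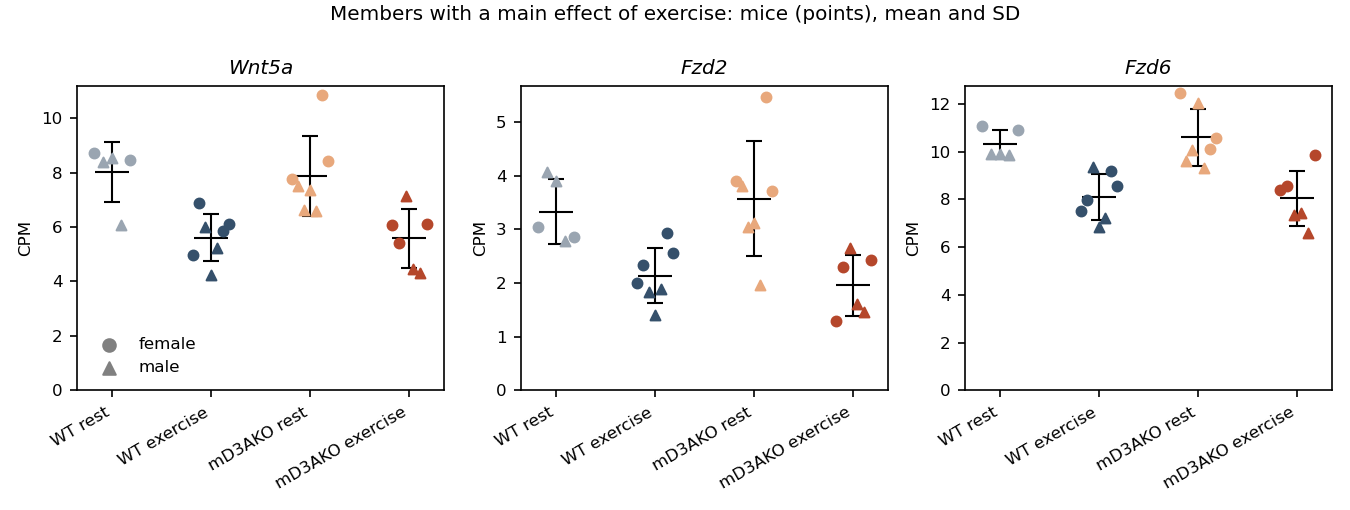
CPM of *Wnt5a*, *Fzd2* and *Fzd6* by group, with females as circles, males as triangles, and the group mean with its SD as a bar. In both genotypes the exercised groups sit lower than the rested ones (for *Fzd6*, 8.10 and 8.04 against 10.3 and 10.6 CPM).

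The test was also made within each genotype. Within WT mice, *Wnt5a* (-0.52, adjusted p = 0.0312) and *Fzd6* (-0.35, adjusted p = 0.0394) were called and *Fzd2* (-0.64, adjusted p = 0.104) was not, although *Fzd2* passed in 4 of 11 alternative settings, those with DESeq2, a sex term, mouse number ranges or 8 groups. With library totals in place of edgeR's TMM scaling factors neither *Wnt5a* nor *Fzd6* passed in WT mice (adjusted p = 0.293 and 0.454), and without a filter *Fzd6* did not (adjusted p = 0.0819). The same edgeR test called 3.59% of all genes. Within mD3AKO mice, in which it called 6.02% of all genes, *Wnt5a* (-0.50, adjusted p = 0.0226), *Fzd6* (-0.40, adjusted p = 0.00785) and *Fzd2* (-0.89, adjusted p = 0.00714) were all called, whereas with library totals *Fzd2* alone was. Both of these comparisons come from the same fit by edgeR, and the share of all genes called within a genotype is given for that fit only. The calls within WT mice depended on single mice: with 1 mouse left out between 0 and 2 members were called, and 13 of the 25 mice changed the count. Within mD3AKO mice *Fzd2* and *Fzd6* passed in all 25 such fits and *Wnt5a* in 22, failing without mouse 17, 19 or 21 (adjusted p up to 0.0663 by edgeR). In females of both genotypes alone, *Fzd6* and *Wnt5a* were called and *Fzd2* was not (-0.69, adjusted p = 0.0524), against 3.03% of all genes called, and in males alone *Fzd2* and *Fzd6* were called and *Wnt5a* was not (-0.50, adjusted p = 0.0513), against 6.01%.

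The responses of the genotypes were not shown to differ. The genotype by exercise interaction called 0 of 26 members by edgeR, 0 by DESeq2 and 0% of all genes, with a lowest adjusted p of 1.00 among the members, and 1 member, *Fzd8*, was under 0.05 before adjustment (-0.42, 95% interval -0.79 to -0.059). For *Wnt5a* the difference between the responses was 0.019 (95% interval -0.36 to 0.40), for *Fzd6* -0.049 (-0.31 to 0.21) and for *Fzd2* -0.25 (-0.82 to 0.32). *Sfrp4* had the lowest estimate, -0.94 (-2.03 to 0.16).

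The other 23 tested members did not pass for exercise by edgeR. *Fzd4*, which is also the receptor of Norrin in blood vessels, was at 114 ± 15.8 CPM in WT mice at rest (SD, n = 5) and at 138 ± 14.6 CPM after exercise (n = 7), and its main effect was 0.29 (SE 0.103, adjusted p = 0.0788). *Fzd7*, a receptor of satellite cells, had 0.25 (SE 0.0949, adjusted p = 0.102). With 1 mouse left out, *Fzd4* was called higher in 1 of 25 edgeR fits (lowest adjusted p = 0.00778). *Fzd7* was called higher in 2 of 25 such fits (lowest adjusted p = 0.0145). *Fzd9* had -0.16 (SE 0.0953, adjusted p = 0.354). Of the ligands, *Wnt10b* had -0.52 (SE 0.184, adjusted p = 0.0701), *Wnt9a* -0.18 (SE 0.0807, adjusted p = 0.180), *Wnt11* -0.11 (SE 0.0977, adjusted p = 0.594) and *Wnt5b* -0.024 (SE 0.0895, adjusted p = 0.937). For the antagonists the estimates were -0.60 for *Sfrp4* (SE 0.277, adjusted p = 0.200), -0.20 for *Sfrp2* (SE 0.408), 0.079 for *Sfrp5* (SE 0.233), -0.048 for *Dkk2* (SE 0.229) and -0.15 for *Dkk3* (SE 0.190), none of which passed. The SE of the *Sfrp* and *Dkk* genes were 0.190 or more, against 0.0670 for *Fzd6*, so that their estimates were less certain.

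Markers of other cells were read beside these falls. Of 8 endothelial genes, 5 were lower after exercise (*Kdr*, *Tek*, *Egfl7*, *Emcn* and *Cdh5*) and 1 was higher (*Esam*), and their summed level ranged from 451 to 600.2 CPM at rest and from 384 to 501 CPM after exercise. Of 10 fibroblast genes, 0 were lower and 1 was higher (*Ly6a*), with sums of 2027 to 6839 CPM at rest and 2195 to 4874 CPM after exercise. Of 8 smooth muscle and pericyte genes, 2 were lower (*Pdgfrb* and *Kcnj8*), with sums of 1114 to 1361 and 1113 to 1335 CPM. Of 7 satellite cell genes, *Pax7*, *Myf5* and *Fgfr4* were lower and *Sdc4* higher, and the sum, led by *Sdc4*, was 98.2 to 149 CPM at rest and 135 to 203 CPM after exercise. Of 7 adipocyte genes 1 was higher (*Plin4*), with sums of 312 to 824 and 402 to 1053 CPM, and of 7 neuromuscular junction genes 1 was higher (*Dok7*). The tested tenocyte, Schwann cell, blood and immune cell genes held no call. These counts stand beside 4.69% of all genes lower and 5.7% higher. No gene of these lists was at 0 in the mean. The mean fibroblast sum was 4001 ± 1422 CPM at rest (SD, n = 12) and 3407 ± 925 CPM after exercise (n = 13). Mouse 21, second of all 25 for that sum and at rest, had the highest *Wnt5a* and *Fzd2* (10.9 and 5.46 CPM). Mouse 7, at rest and with the highest sum, ranked 8 for *Wnt5a* (7.50 CPM) and 5 for *Fzd2* (3.80 CPM). Mouse 1, at rank 17 for the sum, ranked 2 for *Wnt5a* (8.71 CPM). Mouse 2, at rank 18 for the sum, ranked 3 for *Fzd2* (3.90 CPM). Other rested mice were closer in rank. Mice 24, 11 and 13, at ranks 3, 6 and 7 for the sum, ranked 6, 2 and 4 for *Fzd2*. For *Wnt5a* mice 24, 11 and 13 ranked 5, 6 and 3. Mouse 15, at rest and at rank 25 for the sum, ranked 19 for *Fzd2* (1.96 CPM) and 13 for *Wnt5a* (6.57 CPM). Mice 23 and 25, the exercised mice of highest sum (4874 and 4726 CPM), had 6.11 and 6.13 CPM of *Wnt5a* and 2.43 and 2.55 CPM of *Fzd2*. The part of these cells in the falls of *Wnt5a*, *Fzd2* and *Fzd6* was not tested.

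The other genes of the pathway were taken from 8 lists, and 77 of their genes were tested. After exercise 10 passed, 3 higher and 7 lower, beside the 10.4% called over all genes, and the median log2 fold change of the 77 was -0.060. The corepressor *Tle3* rose from 11.3 to 18.8 CPM in WT mice and from 11.1 to 18.3 CPM in mD3AKO mice (0.72, SE 0.103, adjusted p = 1.66e-05). The other 3 calls among 13 nuclear factors were falls, of the TCF/LEF factors *Tcf7l2* (-0.39, adjusted p = 0.0140) and *Lef1* (-0.69, adjusted p = 0.0286) and of the beta-catenin partner *Bcl9* (-0.38, adjusted p = 0.00113). *Lef1* was at 0.205 to 0.339 CPM in the group means, a level of few reads, and DESeq2 did not call it.

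Of 12 planar cell polarity genes, *Vangl2* fell from 1.76 to 1.08 CPM in WT and from 2.09 to 1.14 CPM in mD3AKO mice (-0.79, SE 0.133, adjusted p = 0.000144), *Prickle2* fell (-0.36, adjusted p = 0.00806) and *Prickle3* rose (0.25, adjusted p = 0.0257). Of 24 genes of the intracellular arm, *Amer1*, an adaptor of the beta-catenin destruction complex (-0.37, adjusted p = 0.000851), and *Dact1*, a Dishevelled antagonist (-0.45, adjusted p = 0.0328), fell and the kinase *Csnk1d* rose (0.15, adjusted p = 0.00453). The 11 tested coreceptor genes, the 5 R-spondin, Lgr and ligase genes, the 6 other secreted antagonists and the 3 genes of Wnt secretion held none of the 10 calls, and 23 of the 77 genes were under 0.05 before adjustment, beside 21.3% of all genes. Leaving out 1 mouse ended the call of *Dact1* in 9 of 25 fits (without mouse 3, 7, 8, 11, 19, 20, 21, 22 or 24, adjusted p up to 0.0739 by edgeR), that of *Lef1* without mouse 12 or 20 and that of *Prickle3* without mouse 6 or 17.

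Of 11 tested beta-catenin target genes 1 was called, *Lef1*, which is also among the nuclear factors. *Axin2*, the usual readout of that branch, was at 15.4 and 15.1 CPM at rest in WT and mD3AKO mice and at 13.7 and 13.3 CPM after exercise. Its main effect of -0.17 did not pass (SE 0.0708, adjusted p = 0.132). *Nkd1* had -0.060 (SE 0.192, adjusted p = 0.926).

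**Figure D3:**
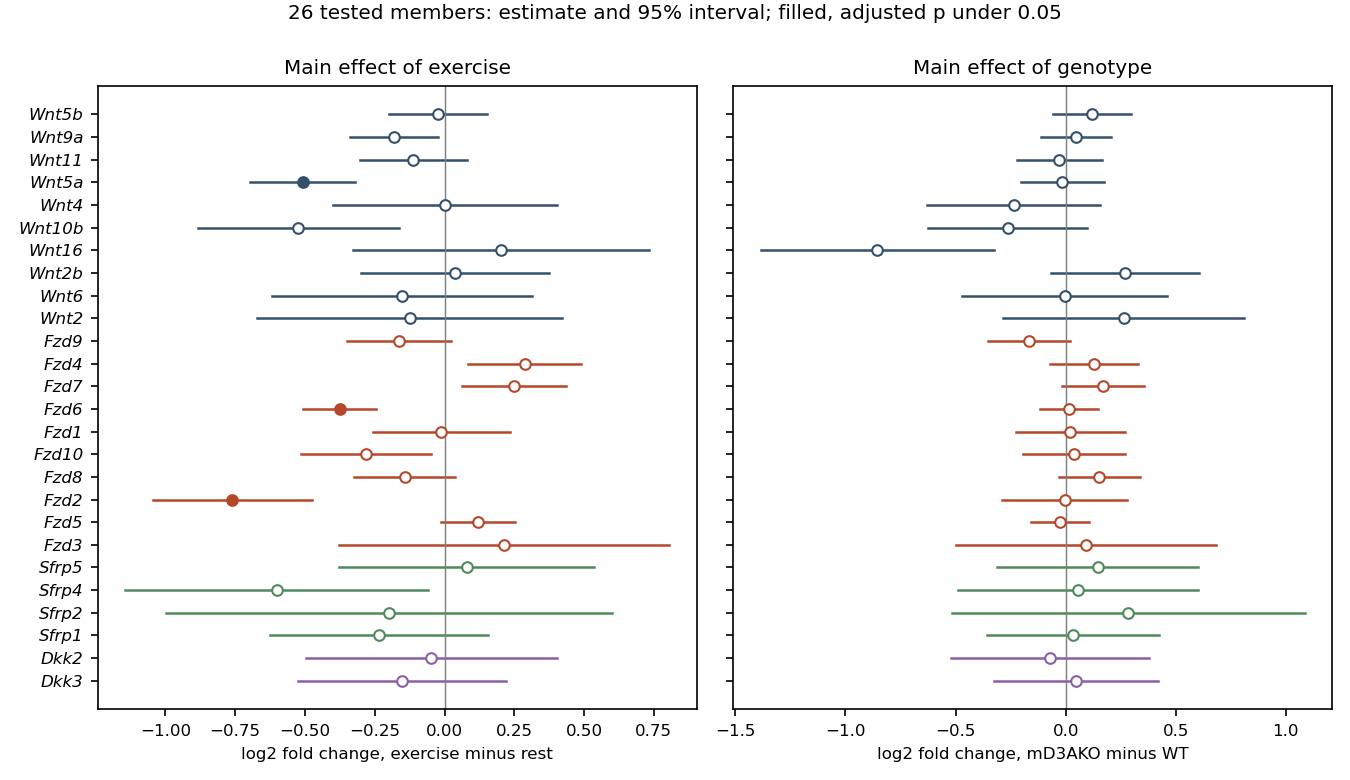
Log2 fold change of the 26 tested members for the main effects of exercise (left) and genotype (right), with 95% intervals (1.96 SE) and filled points at an adjusted p under 0.05, ordered by family and level, blue for *Wnt*, red for *Fzd*, green for *Sfrp* and purple for *Dkk*. Filled points are *Wnt5a*, *Fzd6* and *Fzd2* for exercise, and *Wnt16* has the lowest estimate for genotype, unfilled.

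Genotype called 0 of 26 members by edgeR, against 0.269% of all genes, and 0 by DESeq2, against 0.496%. The members' median log2 fold change was 0.036, against 0.0070 over all genes. Only *Wnt16* was under 0.05 before adjustment (-0.86, SE 0.270, adjusted p = 0.346 by edgeR). The width of the intervals differed between members. *Wnt9a* differed by 0.047 (95% interval -0.11 to 0.21), *Fzd6* by 0.015 (-0.12 to 0.15) and *Wnt5a* by -0.015 (-0.20 to 0.17). *Fzd9* had -0.17 (-0.35 to 0.020). Among the antagonists, *Dkk2* had -0.073 (-0.52 to 0.38) and *Sfrp5* 0.15 (-0.31 to 0.60). *Sfrp2*, at 0.29 (-0.52 to 1.09), had the widest interval. Genotype at rest and genotype after exercise each called 0 members by edgeR, against 0.0918% and 0.11% of all genes, with 1 member under 0.05 before adjustment in each. DESeq2 also called 0 members in each. Of the 77 other pathway genes tested, 0 were called for genotype by edgeR, with 10 under 0.05 before adjustment, beside 6.23% of all genes.

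*Wnt16* (ENSMUSG00000029671, chr6:22288227-22298522), a ligand known for its part in the thickness of cortical bone and here a gene of 10 to 122 counts per library, had the lowest estimate for genotype and for sex. In WT mice at rest it was at 2.33, 1.04, 1.12, 1.24 and 1.88 CPM, where the first and the last mouse were female. The WT mice after exercise had 0.728, 1.504 and 3.81 CPM (lowest, median, highest), and the mD3AKO mice 0.575, 0.699 and 1.72 CPM at rest and 0.441, 0.991 and 1.56 CPM after exercise. Of the 13 mD3AKO mice, 11 lay below the WT median and 6 below the lowest WT mouse, and the groups overlapped.

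Split by sex, *Wnt16* was at 2.48 ± 0.967 CPM in WT females (SD, n = 6) and 1.30 ± 0.322 CPM in mD3AKO females (n = 6), and at 1.08 ± 0.273 CPM in WT males (n = 6) and 0.638 ± 0.160 CPM in mD3AKO males (n = 7). In each sex the mD3AKO mean was the lower one and the ranges overlapped. The estimate was -0.87 (SE 0.266) in the fit of females alone and -0.76 (SE 0.214) in that of males alone, neither called (adjusted p = 1.00 and 0.460 by edgeR). With sex as an additive term the difference was called (-0.84, SE 0.170, adjusted p = 0.0169, against 0.441% of all genes). It was also called with 8 groups of sex, genotype and exercise (-0.81, adjusted p = 0.0445, against 0.345% of all genes) and with a term for ranges of the mouse numbers (0.594% of all genes), and it passed in all 25 fits that kept the sex term and left out 1 mouse (adjusted p 0.00537 to 0.0380). Without a term for sex it passed in none of the 25 fits that left out 1 mouse (adjusted p 0.192 to 0.547). At rest, the neuromuscular junction genes summed to 185 ± 7.11 CPM in WT and 217 ± 24.4 CPM in mD3AKO mice. After exercise they summed to 197 ± 13.4 and 218 ± 14.2 CPM. The adipocyte genes summed to 491 ± 90.5 and 464 ± 173 CPM at rest. Their sums in exercised mice were 726 ± 215 and 508 ± 79.0 CPM. The part of these cells in the *Wnt16* difference was not tested.

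Sex was tested because the groups hold females and males in unequal shares. WT mice were 2 females and 3 males at rest and 4 females and 3 males after exercise. The mD3AKO mice were 3 females and 4 males at rest and 3 females and 3 males after exercise. With 8 groups of sex, genotype and exercise, 28 members could be tested, the 26 and the low ligands *Wnt7b* (-0.44, adjusted p = 0.557) and *Wnt10a* (-0.31, adjusted p = 0.612), and 4 were called between males and females, or 14.3% against 8.15% of all genes. *Wnt16* and *Wnt4* were lower in males, as were 2.79% of all genes, and *Dkk2* and *Wnt11* higher, as were 5.36%. Females carried the mouse numbers 1 to 6 and 20 to 25 and males 7 to 19, so that sex and whatever the numbering marks cannot be told apart.

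*Wnt16* was at 0.880, 1.64 and 3.81 CPM (lowest, median, highest) in the 12 females and at 0.441, 0.728 and 1.504 CPM in the 13 males, a difference of -1.06 (SE 0.177, adjusted p = 0.000644). *Wnt4* (ENSMUSG00000036856, chr4:137277489-137299726), a ligand known for its role in the female gonad, was at 1.78, 3.22 and 4.06 CPM in females and 1.02, 1.92 and 2.91 CPM in males (-0.69, SE 0.157, adjusted p = 0.00802). All 13 males lay below the female median in both genes, with overlap at the edges.

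*Dkk2* (ENSMUSG00000028031, chr3:132085292-132180304), an antagonist that binds the coreceptors Lrp5 and Lrp6, was at 9.19, 16.3 and 23.5 CPM in females and 16.5, 27.1 and 46.4 CPM in males (0.81, SE 0.171, adjusted p = 0.00499). Its highest value was that of mouse 15, the library with 39.5% of its counts in ribosomal RNA genes. The TMM factor of that library was 0.631, which sets its CPM above the level by library totals. *Wnt11* (ENSMUSG00000015957, chr7:98835112-98855195) was at 5.56, 6.52 and 7.70 CPM in females and 5.23, 8.04 and 10.1 CPM in males (0.29, SE 0.0817, adjusted p = 0.0274). *Wnt11* lost its call in 12 of the 25 fits that left out 1 mouse (adjusted p up to 0.0829), among them those without mouse 3, 8, 10 or 11, whereas *Wnt16*, *Wnt4* and *Dkk2* kept theirs in all 25.

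Responses to exercise or genotype were not shown to differ between the sexes: by edgeR, sex by exercise and sex by genotype called 0 of 28 members each, against 0.046% and 0% of all genes, with 0 members under 0.05 before adjustment in either. For sex by exercise, the difference was 0.079 for *Wnt5a* (95% interval -0.27 to 0.43), -0.19 for *Fzd2* (-0.70 to 0.32) and -0.091 for *Fzd6* (-0.34 to 0.15), and for sex by genotype it was 0.11 for *Wnt16* (-0.60 to 0.82). Among the markers, the summed level of the 6 Schwann cell genes was 64.5 ± 61.7 CPM in females and 36.0 ± 27.2 CPM in males, that of the 7 adipocyte genes 635 ± 195 and 477 ± 143 CPM, that of the 7 tenocyte genes 434 ± 126 and 366 ± 109.6 CPM, that of the 5 blood genes 156 ± 61.1 and 222 ± 109.8 CPM, and that of the 10 fibroblast genes 3810.2 ± 1172 and 3583 ± 1268 CPM. Their part in the differences between the sexes was not tested.

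**Figure D4:**
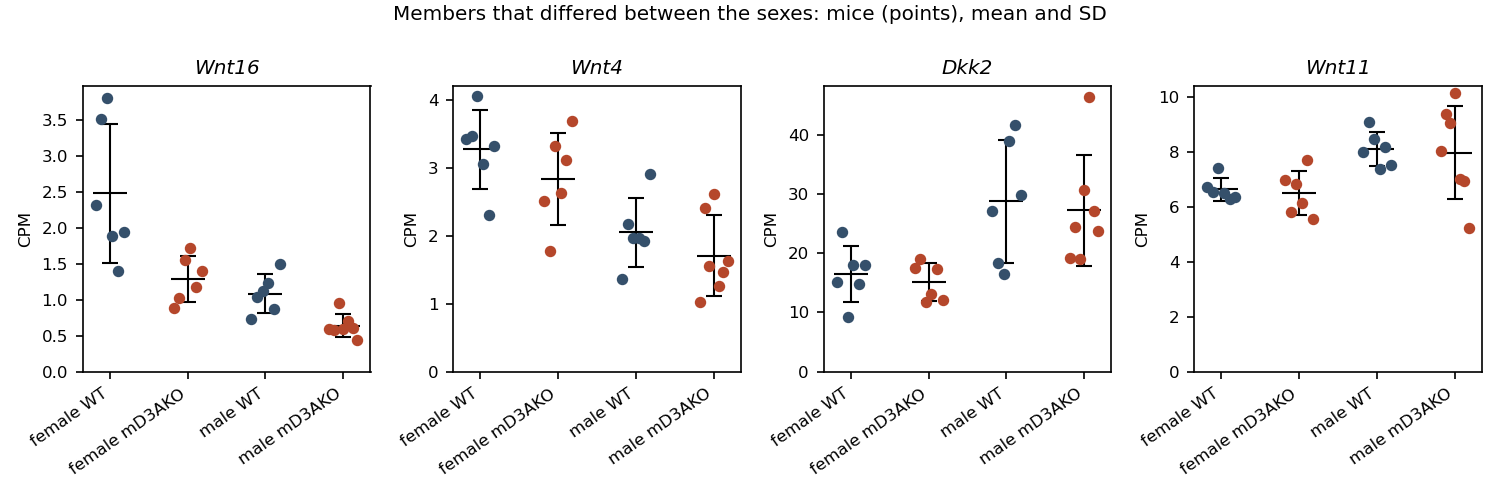
CPM of *Wnt16*, *Wnt4*, *Dkk2* and *Wnt11* in females and males of each genotype (WT blue, mD3AKO red), with 1 point per mouse and the mean with its SD. *Wnt16* is lowest in male mD3AKO mice (0.638 CPM) and highest in female WT mice (2.48 CPM), and *Dkk2* is higher in the males of both genotypes.

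The antagonists of the Sfrp family varied widely from mouse to mouse, and they were read beside the marker sums. *Sfrp5* had its 6 highest values, 6.76 to 15.9 CPM, in the 6 libraries with the highest summed level of 6 Schwann cell genes (80.0 to 209 CPM). In the 19 others that sum was 19.4 to 36.6 CPM and *Sfrp5* 2.99 to 6.67 CPM. The 6 libraries came from all 4 groups and both sexes, with mouse 21, a female mD3AKO mouse at rest, the highest in both. Of the 6 Schwann cell genes, *Mbp*, which encodes myelin basic protein, reached 173 CPM, and *Pmp2* ranged from 0 to 0.977 CPM.

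*Sfrp2* had its 7 highest values, 1.27 to 3.12 CPM, in the 7 libraries with the highest sum of 10 fibroblast genes (4542 to 6839 CPM), and 0.140 to 1.18 CPM in the other 18, whose sums were 2027 to 4494 CPM. The cut at 7 is where the 2 rankings hold the same libraries, so the full match follows from where the cut was placed. Within the 7 the order differed: mouse 7, with the highest sum, ranked 6 for *Sfrp2* (1.33 CPM). The sums themselves show no gap there, and mouse 5, next at 4494 CPM, had 0.875 CPM of *Sfrp2*. The lowest *Sfrp2* value was that of mouse 15, whose fibroblast sum of 2027 CPM was also the lowest. *Sfrp4* was highest in mouse 7 (16.9 CPM) and next in mouse 21 (9.69 CPM), the libraries ranked first and second for the fibroblast sum (6839 and 5737 CPM), and lowest in mouse 19 (1.46 CPM, with a sum of 2507 CPM). In mouse 24, which came next for that sum (5187 CPM), *Sfrp4* was at 5.76 CPM, below the 7.78 CPM of mouse 25. *Sfrp1* was also highest in mice 21 and 7 (3.670 and 3.599 CPM), and in mouse 24 it was at 1.81 CPM. None of the 10 fibroblast genes was at 0 in any library. These are descriptions over 25 libraries that share depth and composition, and the part of Schwann cells or fibroblasts in the *Sfrp* levels was not tested.

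**Figure D5:**
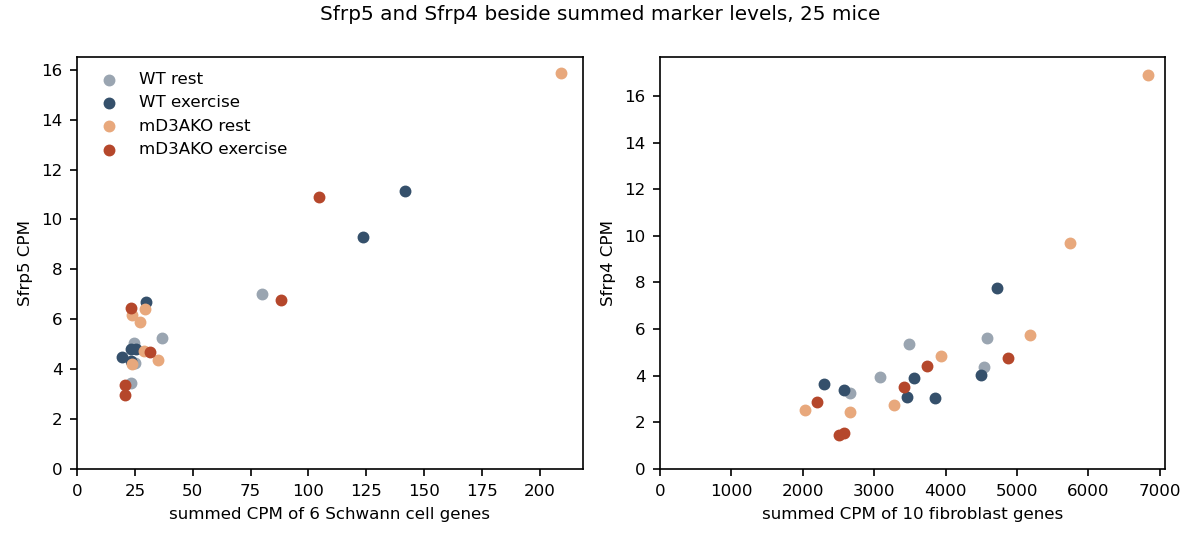
*Sfrp5* against the summed CPM of 6 Schwann cell genes (left) and *Sfrp4* against that of 10 fibroblast genes (right), 1 point per mouse, coloured by group. The 6 libraries with 80.0 to 209 CPM of Schwann cell genes hold the 6 highest *Sfrp5* values, and mouse 7 stands alone at 16.9 CPM of *Sfrp4*.

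Across the 26 tested members, mouse 21 had the highest level of 8 and mouse 7 of 5, and mouse 19 had the lowest level of 7 and mouse 15 of 5. Without mouse 15 the main effect of exercise called 4 members, adding *Wnt10b*, against 11% of all genes, and that of genotype 0, against 0.239%.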

How the data were processed

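Total RNA of 25 single *soleus* muscles was depleted of ribosomal RNA and sequenced with a stranded kit. The authors deposited whole-number counts per gene and library, without normalization or filter, on the genes of GENCODE M15 and mm10. The submitters' processing notes name FastQC 0.11.5, STAR 2.5.3a and featureCounts 1.5.3. Whether counting used strand is not given in the sources used here, and 5 members share exon bases with a gene on the other strand, none of which held over 58 counts in all libraries together. Groups, sexes and mouse numbers came from the sample labels, and 0 columns belonged to other samples. Symbols were matched through GENCODE M21 for 52403 of 52636 genes. Beyond group, sex and number the sample names say nothing more of the mice, and all 67 replicate pairs differed by more than sampling noise.

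Counts were tested with edgeR 4.0.16 (R 4.3.3; glmQLFit and glmQLFTest, TMM, filterByExpr with a minimum count of 10 and the 4 groups), with 1 mean per group and no term for sex. Each main effect is the mean of its 2 within-stratum differences, and p-values were adjusted by Benjamini-Hochberg over all 16340 tested genes, or 17389 with the 8 groups used for sex. Fold changes are log2, SE are the log2 fold change over the square root of F, and calls are at an adjusted p under 0.05. CPM use TMM library sizes, and RPKM divide CPM by the summed exon length. Full statistics are given for members called in a main effect, the interaction or the sexes, the 3 of highest RPKM per family, and *Wnt16*. The last was included because the study names it. The level of 1 marker gene is not reported here, and it was left out of the marker sums. Single members outside that rule were named after their values were seen. The members and lists were chosen with earlier results of these data known. The alternatives were DESeq2 1.42.0, other size factors and filters, a sex term, single sexes, the robust option and leaving out each mouse. A term for mouse number ranges (1 to 6, 7 to 19, 20 to 25), the fit with 8 groups and leaving out mice under the sex term were added after seeing the data. The model was tested on simulated data.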

Additional observations from a re-analysis of the deposited data

Results flagged for a closer look

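In 64 sets of a named member in a group, 6 held a mouse whose gap to its nearest neighbour was large for the range of the group, or 9.38%, where chance alone gives about 5%. *Wnt5a* in WT mice at rest was at 6.08 CPM in mouse 14 against 8.37 to 8.71 CPM in the other 4, and *Dkk2* was at 39.0 CPM in the same mouse against 15.2 to 18.3 CPM. *Fzd7* in mD3AKO mice at rest was at 52.5 CPM in mouse 2, against at most 38.3 CPM in the others. *Sfrp5* was at 15.9 CPM in mouse 21 of the same group, against at most 6.41 CPM, and that library had the highest sum of Schwann cell genes (209 CPM). *Sfrp2* in mD3AKO mice after exercise was at 2.90 CPM in mouse 23, against at most 1.18 CPM, and *Sfrp4* in WT mice after exercise at 7.78 CPM in mouse 25, against at most 4.03 CPM. These 2 libraries had the highest fibroblast sums of their groups, 4874 and 4726 CPM. The part of these cells in the high values was not tested.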

How the results depend on the processing

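No paired analysis was possible because each mouse has its own number and no number occurs in more than 1 group. The falls of *Wnt5a*, *Fzd2* and *Fzd6* after exercise kept their direction in every setting and passed in all 25 fits without 1 mouse, and only the fits of 1 sex lost calls (*Fzd2* in females, *Wnt5a* in males). The count for exercise was 2 to 4 over the settings. Members near 1 CPM rest on few reads, and *Wnt16* had 10 to 122 counts per library.

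The count for genotype was 1 (*Wnt16*) instead of 0 with sex as an additive term, with mouse number ranges and with 8 groups. For exercise within WT mice, 2 calls became 0 with library totals in place of TMM, 1 without a filter, and 0 in females or males alone, and 0 to 2 without single mice, and they became 3, adding *Fzd2*, with DESeq2, a sex term, mouse number ranges or 8 groups. Within mD3AKO mice, 3 calls became 1 with library totals, 1 in females or males alone, and 2 to 3 without single mice. The share of all genes called in these within-genotype alternatives is not given, so the changes are not read as results about the members. For the main effect of exercise, library totals lowered that share from 10.4% to 5.67% of all genes. The 10 calls of the other pathway genes became 5 with library totals, where the calls over all genes fell from 1699 to 927, and 4 in females alone, and were 7 to 14 in the other settings. Fewer mice were fitted in the single-sex settings, and otherwise the cause was not tested.

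No estimate that changed sign was called before or after. For exercise, *Wnt4* went from 0.0016 to -0.00049 (RLE size factors), -0.020 (library totals), -0.0021 (no filter), -0.00059 (filter at 30 counts), -0.084 (sex term), -0.051 (females), -0.13 (males), -0.089 (mouse number ranges) and -0.081 (8 groups). *Dkk2* went from -0.048 to 0.051 (sex term), 0.070 (females), 0.024 (males), 0.048 (mouse number ranges) and 0.054 (8 groups). For exercise in females alone, *Wnt11* had 0.059, *Sfrp2* 0.0036 and *Sfrp5* -0.30, and in males alone *Wnt5b* had 0.12. For genotype in females alone, *Wnt5a* had 0.019, *Wnt9a* -0.0040, *Fzd2* 0.13, *Sfrp4* -0.017, *Sfrp5* -0.056 and *Dkk3* -0.064, and in males alone *Fzd6* had -0.039 and *Sfrp2* -0.27. For genotype, *Fzd2* had 0.048 with 8 groups and *Fzd6* -0.015 with library totals. For the interaction, *Wnt5a* had -0.016 with library totals and -0.088 in females, *Fzd2* 0.40 in males and *Fzd6* 0.099 in females.

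Without single mice, the estimates for exercise ran from -0.085 to 0.080 for *Wnt4*, -0.11 to 0.015 for *Wnt5b*, -0.54 to 0.0076 for *Sfrp2*, -0.054 to 0.27 for *Sfrp5* and -0.15 to 0.11 for *Dkk2*. Those for genotype ran from -0.062 to 0.015 for *Wnt5a*, -0.074 to 0.0062 for *Wnt11*, -0.070 to 0.043 for *Fzd2*, -0.019 to 0.039 for *Fzd6*, -0.068 to 0.43 for *Sfrp2*, -0.17 to 0.17 for *Sfrp4*, -0.040 to 0.24 for *Sfrp5*, -0.20 to 0.093 for *Dkk2* and -0.073 to 0.11 for *Dkk3*. Those for the interaction ran from -0.066 to 0.11 for *Wnt5a* and -0.12 to 0.00096 for *Fzd6*.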
